A study of Mus musculus with 8 samples.

Results

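The miR-99/100 and miR-125 families are microRNAs whose genes lie beside let-7 genes in the mouse genome. Their 5 members on the array, mmu-miR-99a, mmu-miR-99b, mmu-miR-100, mmu-miR-125a-5p and mmu-miR-125b-5p, were chosen by name out of 567 mouse miRNAs; the prefix mmu, for mouse, is mostly left out below. Their levels were measured in skeletal muscle of diabetic and control mice on 8 Agilent 1-colour microarrays, with 4 arrays per group. The series compares obese diabetic C57BL/KsJ db/db mice, a strain without a working leptin receptor, with normal C57BL/KsJ db+ mice, and its labels name no drug, age or muscle. Title, description and group entry name the same 4 diabetic and 4 control samples, but the strain entry reads db+ for the diabetic and db/db for the control samples, opposite to the design. Every direction given here follows the titles and would turn round if the strain entry were right. No label states that the samples of a group came from separate mice, so p-values measure only the spread between these samples, which may be technical.

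A microRNA guides the silencing complex to messenger RNAs that pair with its seed, bases 2 to 8 from the 5′ end, and lowers the output of those messengers. In other mouse and human cells miR-99 and miR-100 are known to repress the growth kinase mTOR. miR-125b is known to hold back differentiation and regeneration of mouse muscle, in part through insulin-like growth factor 2. Both families are often transcribed together with let-7, which represses Lin28 and several genes of insulin signalling. In the gene order of GRCm38.p6, the miRNA gene next to Mir99a on chromosome 16 is Mirlet7c-1, and the next is Mir125b-2. Mir100, Mirlet7a-2 and Mir125b-1 follow each other on chromosome 9 within the host gene Mir100hg. Mir99b, Mirlet7e and Mir125a follow each other on chromosome 17 within Spaca6. All 6 member hairpins lie on the plus strand. miR-125b-5p is made from hairpins on chromosomes 9 and 16, which give the same mature sequence, so the array cannot tell them apart.

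The mature sequences below, from RefSeq with assembly GRCm38.p6, show what the members share and how little separates them. Capitals mark the seed.
miR-99a-5p: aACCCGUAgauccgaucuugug
miR-100-5p: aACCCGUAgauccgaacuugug
miR-99b-5p: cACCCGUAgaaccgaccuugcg
miR-125b-5p: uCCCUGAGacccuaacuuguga
miR-125a-5p: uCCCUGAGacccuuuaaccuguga

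The members fell into 2 seed groups. Of 1679 mature mouse miRNAs in the table, 3 carry the seed of miR-99a, miR-100 and miR-99b, and 5 carry the seed of miR-125a-5p and miR-125b-5p. Counted from 1 at the 5′ end, miR-100 becomes miR-99a by the single change A16U. miR-99a becomes miR-99b by A1C, U11A, U16C and U21C. miR-125b-5p and miR-125a-5p share their first 13 bases and lie 3 edits apart, with lengths of 22 and 24 bases. Whether a probe for one of these near-identical miRNAs also binds the other was not tested.

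The let-7 neighbours are shown because the ratios below set the members against them. Capitals again mark the seed.
let-7c-5p: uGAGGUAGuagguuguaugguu
let-7a-5p: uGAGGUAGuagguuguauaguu
let-7e-5p: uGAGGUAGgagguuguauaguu

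Counted in the same way, let-7c becomes let-7a by G19A, and let-7e becomes let-7a by G9U. let-7a and let-7c are also made from hairpins outside these clusters.

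Diabetic arrays had 121 ± 13.1 detected miRNAs and control arrays 129 ± 15.3 (SD, n = 4 each; exact permutation test, two-sided, p = 0.457). Of the 6 muscle miRNAs listed, 5 were detected on at least 4 arrays, and miR-499 was never detected. Their summed scaled level ran from 77.9 to 106.7 on diabetic arrays and from 52.7 to 103 on control arrays, with control 2 lowest. The log2 differences, diabetic minus control, were 0.34 for miR-1, 0.09 for miR-133a and 0.11 for miR-133b. Those of miR-206 (−1.33) and miR-208b (−0.53) ran the other way. None of the 5 had a limma adjusted p under 0.05. Stromal cell markers, with 5 of 7 tested and miR-145 at 0 detected arrays, summed to 0.847 to 0.907 on diabetic arrays and 0.865 to 1.49 on control arrays. Control 1 (1.49) and control 4 (1.42) stood above the others. Leukocyte markers, with 3 of 6 tested and miR-150 never detected, summed to 0.215 to 0.67 on diabetic arrays and 0.383 to 2.09 on control arrays, and control 2 was highest. The tested marker miR-342-3p by itself was highest on control 1 (scaled log2 level −2.85), above control 4 (−3.31) and control 2 (−3.42). The summed level of the red cell marker miR-451 with miR-144 was 0.688 to 1.51 on diabetic and 0.852 to 2.43 on control arrays. That of the endothelial miR-126 strands was 1.79 to 2.45 on diabetic and 1.59 to 2.65 on control arrays. The liver marker miR-122 was 0.0184 to 0.0787 on diabetic and 0.00834 to 0.126 on control arrays. The neuronal miR-124 and miR-9 were never detected. On the slide, row 2 held the diabetic and row 1 the control arrays, so row and group cannot be told apart.

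No member of either family passed the test between diabetic and control muscle. Of the 5 members, 4 were detected often enough to be tested, and 0 of the 4 had an adjusted p under 0.05 (limma, Benjamini-Hochberg over 126 miRNAs). Over all 126 tested miRNAs, 4.76% passed, all of them higher in diabetic muscle. The members' log2 differences, diabetic minus control, ran from −0.79 to 0.27 with a median of 0.06, against a median of −0.06 over all tested miRNAs. The groups of 0 of the 4 members were separate, against 8.73% of the tested miRNAs. An unadjusted p under 0.05 was reached by 1 of the 4, miR-125a-5p, and by 16.7% of the tested miRNAs. In bulk tissue, fewer cells of a type and less RNA per cell cannot be told apart.

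Each member has 2 probes of 10 spots per array, 1 far brighter than the other. The processed intensities given next are background-subtracted but not scaled between arrays. For miR-99a, the brighter probe A_54_P2262 read 307.3, 332.9, 274.2 and 180.8 on diabetic arrays 1 to 4, and 262.4, 271.4, 209.7 and 236.1 on control arrays 1 to 4. The diabetic readings enclosed all 4 control readings. For miR-100, the brighter probe A_54_P1438 read 173.4, 175.6, 131.8 and 77.9 on diabetic arrays, and 150.9, 116.7, 95.1 and 124.1 on control arrays. Here too diabetic 4 was lowest and the groups overlapped. Diabetic 4 was also the dimmest array, with a 75th percentile of 7.78 on the log2 scale, and control 2 the brightest at 9.27.

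For miR-125b-5p, the brighter probe A_54_P2282 read 313.5, 348.3, 263.5 and 158.7 on diabetic arrays, and 420.2, 334.7, 204.4 and 284.4 on control arrays. The groups overlapped, with control 1 highest and diabetic 4 lowest. For miR-125a-5p, the brighter probe A_54_P2276 read 28.2, 19.6, 13.9 and 11.1 on diabetic arrays, and 37.2, 32.2, 25.8 and 27.5 on control arrays. Of the diabetic readings, 3 lay under every control reading and the fourth, diabetic 1, lay among them. The median coefficient of variation between spots of one array was 7.4% for A_54_P2262, 6.5% for A_54_P1438, 9.3% for A_54_P2282 and 15.3% for A_54_P2276. The dim miR-125a-5p probe thus had the widest spread between spots among these 4.

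**Figure D1:**
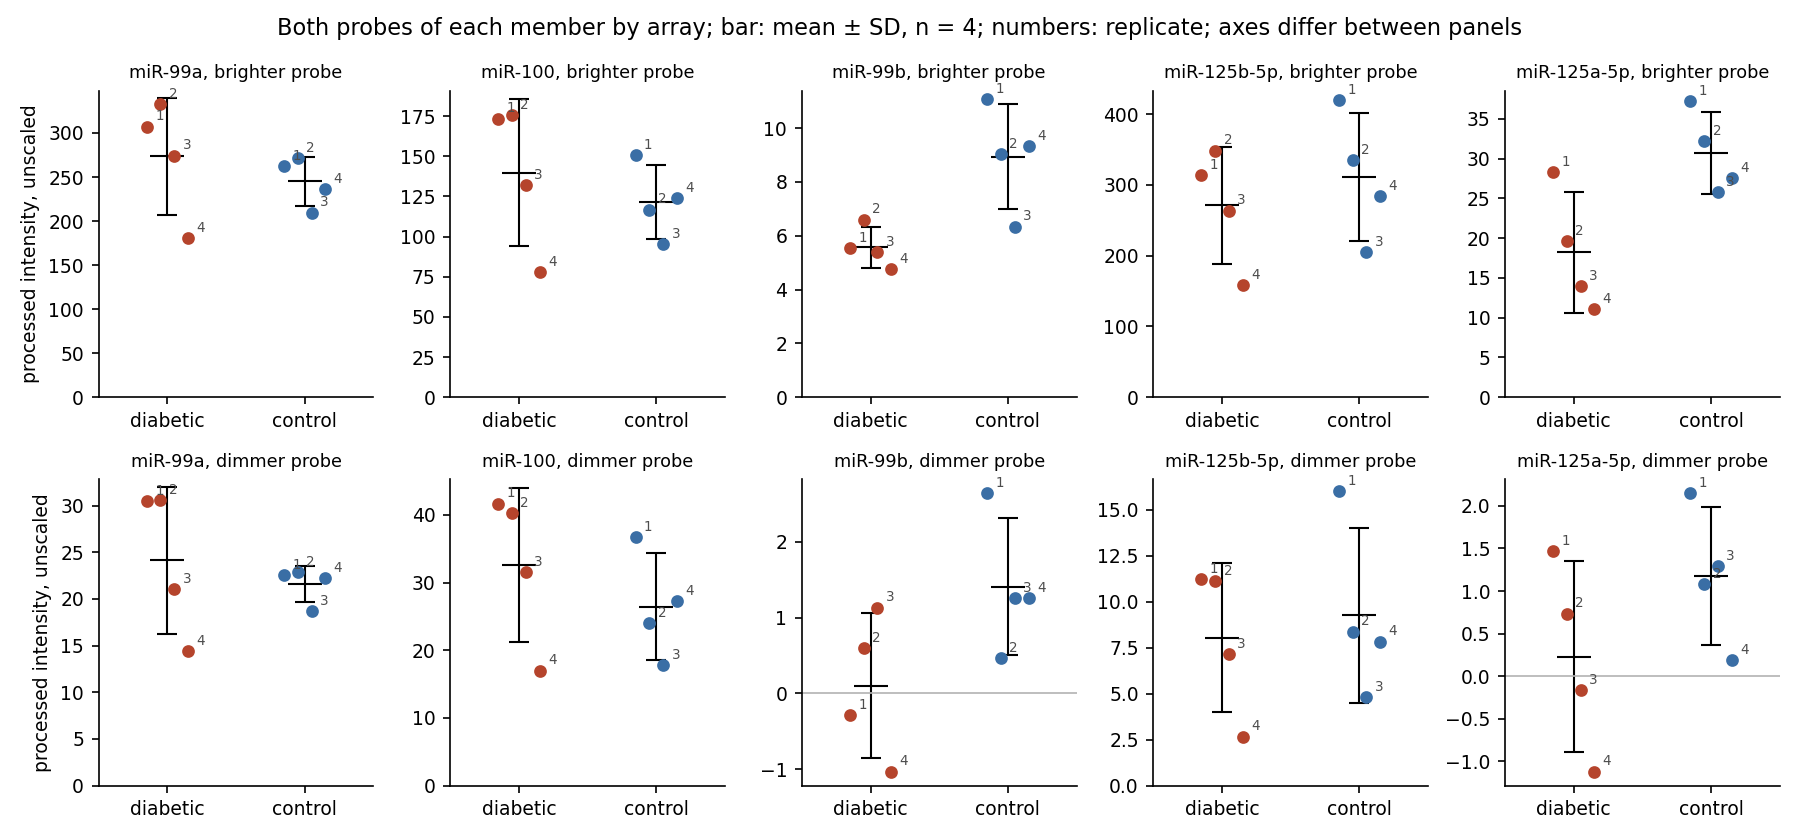
Unscaled processed intensity (y axis) of the brighter and the dimmer probe of each member on diabetic arrays (left in each panel) and control arrays (right). Points are arrays numbered by replicate, bars are mean ± SD, and y axes differ between panels. Diabetic array 4 is the lowest diabetic point in every panel.

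mmu-miR-99a had scaled log2 levels (relative to each array's 75th percentile of detected probes) of −1.09, −1.40, −1.48 and −1.17 on diabetic arrays and −1.11, −2.07, −1.56 and −1.34 on control arrays. The highest diabetic and highest control array lay side by side, and control 2 lay furthest down. Its mean was −1.28 ± 0.19 in diabetic and −1.52 ± 0.41 in control muscle (SD, n = 4 each). The log2 difference was 0.23 (SE 0.24, 95% interval −0.29 to 0.76, limma adjusted p = 0.699), which does not exceed the spread between arrays.

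mmu-miR-100, which differs from miR-99a at 1 base, had scaled log2 levels of −1.74, −2.15, −2.34 and −2.21 on diabetic arrays and −1.71, −3.13, −2.57 and −2.11 on control arrays. The arrays at the ends were the same ones, control 1 at the top and control 2 at the bottom of the control group. Its mean was −2.11 ± 0.26 in diabetic and −2.38 ± 0.61 in control muscle (SD, n = 4 each). The log2 difference was 0.27 (SE 0.30, 95% interval −0.38 to 0.93, limma adjusted p = 0.699). Both differences rested largely on control 2: without it they were 0.051 for miR-99a and 0.023 for miR-100. Control 2 was also the brightest array (9.27 on the log2 scale), so scaling divided its readings by the most. Before scaling, its reading of A_54_P2262 for miR-99a, 271.4, was the highest of the control arrays. That of A_54_P1438 for miR-100, 116.7, lay above control 3 (95.1). After scaling, control 2 had the lowest sum of muscle markers and the highest sum of leukocyte markers. The part of brightness and of cell types in these values was not tested.

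The dimmer probes gave the same direction. For miR-99a, A_54_P2262 gave a log2 difference of 0.24 and A_54_P2263 of 0.21. For miR-100, A_54_P1438 gave 0.25 and A_54_P1437 gave 0.37. None passed the limma test over 207 probes, in which 4.83% of probes passed.

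mmu-miR-99b, the third miRNA with this seed and the one transcribed with let-7e and miR-125a, was not well above background on any of the 8 arrays and was not tested. Its brighter probe A_54_P4364 read 5.5, 6.6, 5.4 and 4.8 on diabetic arrays and 11.1, 9.0, 6.3 and 9.3 on control arrays. The groups overlapped only at diabetic 2 and control 3. The mean of the negative control spots was 2.21 to 4.21 on diabetic arrays and 2.97 to 3.78 on control arrays. Both groups were below the detection rule, so no fold is given. The array thus measured 2 of the 3 miRNAs of the miR-99/100 seed group.

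mmu-miR-125b-5p had scaled log2 levels of −1.14, −1.42, −1.61 and −1.44 on diabetic arrays and −0.50, −1.85, −1.68 and −1.16 on control arrays. All diabetic arrays lay inside the control range. The mean was −1.40 ± 0.19 in diabetic and −1.30 ± 0.61 in control muscle (SD, n = 4 each). The log2 difference was −0.11 (SE 0.29, 95% interval −0.74 to 0.53, limma adjusted p = 0.872). Its sign was not fixed: it was 0.16 without control 1 and 0.22 when arrays were scaled over all mouse probes. Under that scaling the median over all tested miRNAs was 0.26 in place of −0.06. Control 1 and control 4 were the pair highest in the sum of stromal markers. Without this pair, left out after seeing the data, the difference was 0.36 (limma adjusted p = 0.46). The median over all tested miRNAs then was 0.19. The part of stromal cells in the sign was not tested.

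mmu-miR-125a-5p, which shares the seed of miR-125b-5p, had scaled log2 levels of −4.59, −5.56, −5.91 and −5.47 on diabetic arrays and −3.97, −5.22, −4.63 and −4.56 on control arrays. Diabetic 1 lay beside the control arrays and the other 3 diabetic arrays lay under all of them. The detection rule was met on 2 of 4 diabetic and 4 of 4 control arrays. The mean was −5.38 ± 0.56 in diabetic and −4.59 ± 0.51 in control muscle (SD, n = 4 each). The log2 difference was −0.79 (SE 0.33, 95% interval −1.50 to −0.075). The unadjusted limma p was 0.033 and the adjusted p 0.237, so the difference did not pass the threshold. Of the 126 tested miRNAs, 8 had a lower difference.

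This value lies close to the floor of −5.95 and moved with the handling of spots and with the scaling. With all spots kept the log2 difference was −0.47 (limma adjusted p = 0.514), and with normexp background correction it was −0.03 (limma adjusted p = 0.998). Normexp added an offset of 50 to every spot. This exceeds every reading of the brighter probe, at most 37.2, and by itself draws log2 differences of dim probes towards 0. Under quantile normalization the log2 difference was −0.46 (limma adjusted p = 0.428). With a floor at the 5th percentile it was −0.53 (limma adjusted p = 0.435). With scaling over all mouse probes it was −0.46 (limma adjusted p = 0.483). That scaling moved the median over all tested miRNAs from −0.06 to 0.26, so the shift was not particular to miR-125a-5p. Without control 1 and control 4, left out after seeing the data, it was −0.46 (limma adjusted p = 0.487). The median over all tested miRNAs then was 0.19. The part of stromal cells in the difference was not tested. The brighter probe A_54_P2276 alone gave −0.70 (SE 0.31, limma adjusted p = 0.31), and the dimmer probe was detected on 0 arrays.

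**Figure D2:**
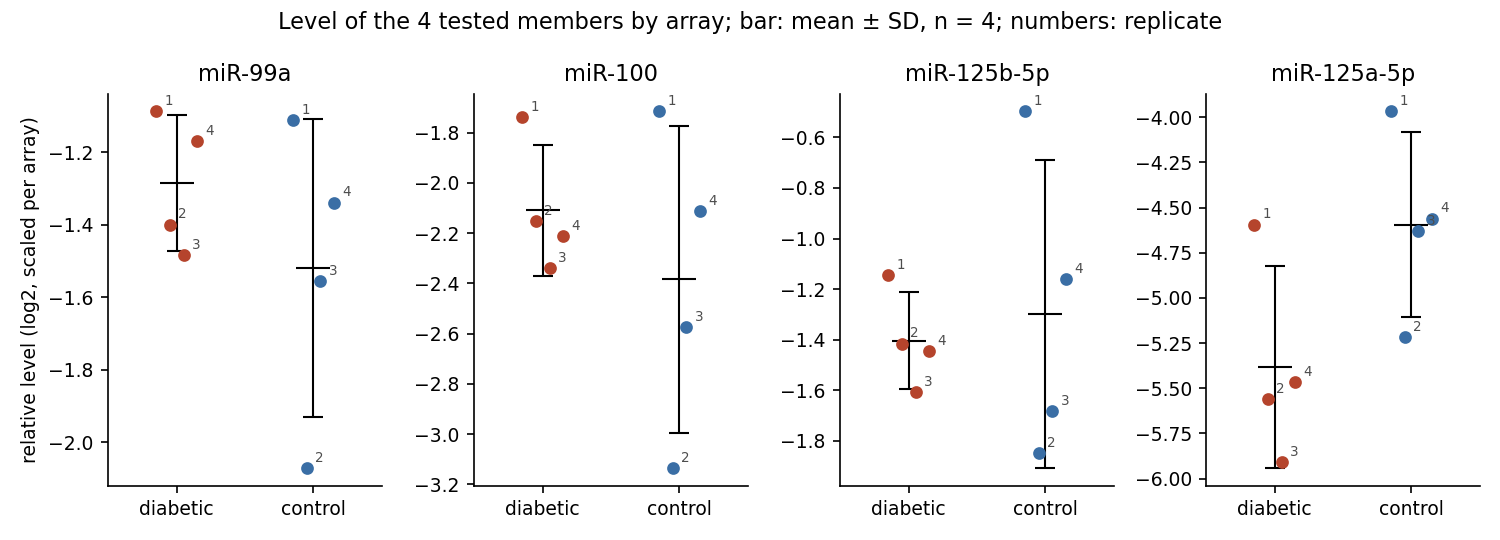
Scaled log2 level (y axis) of the 4 tested members on diabetic arrays (left) and control arrays (right). Points are arrays numbered by replicate, bars are mean ± SD (n = 4), and y axes differ between panels; control arrays spread more widely for 3 of the 4 members, and only miR-125a-5p has 3 diabetic points under every control point.

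The control arrays were the more variable group for 3 of the 4 tested members, miR-125a-5p being the exception. The same held for 113 of all 126 tested miRNAs, so the members did not stand apart in this.

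The other strands of the member hairpins were seldom or never detected. Of the 6 named, 4 were on the array, and 3 of these, miR-99b*, miR-125b* and miR-125b-3p, were detected on 0 arrays. miR-125a-3p was detected on 1 control array. Its brightest probe A_54_P2280 read 3.9, 4.3, 1.2 and 4.6 on diabetic arrays and 14.2, 21.4, 8.2 and 5.9 on control arrays. All diabetic readings lay under all control readings, but 3 control arrays and all diabetic arrays failed the detection rule, and no fold is given. miR-351, which carries the seed of miR-125 and is encoded on chromosome X, was detected on 0 arrays, as was miR-670, whose current sequence carries another seed.

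The let-7 neighbours gave 0 calls as well. let-7a, next to miR-100, had a log2 difference of −0.08 (SE 0.23), and let-7c, next to miR-99a, of −0.07 (SE 0.25), both near 0. let-7e, the middle gene of the chromosome 17 cluster, had scaled log2 levels of −2.13, −2.61, −2.66 and −2.16 on diabetic arrays and −1.61, −2.54, −2.10 and −1.44 on control arrays. The groups overlapped at control 2. Its log2 difference was −0.47 (SE 0.27, limma adjusted p = 0.445). On the chromosome 17 cluster the 2 tested miRNAs thus had differences of −0.79 and −0.47, both negative and neither passing the test. Of all 126 tested miRNAs, 68 had a negative difference.

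miR-10a and miR-10b resemble miR-100 over most of their length, with miR-10a 3 edits away and its seed different. Their log2 differences were −0.11 (SE 0.24) for miR-10a and 0.43 (SE 0.29, limma adjusted p = 0.543) for miR-10b. In all, 5 of the 11 related miRNAs on the array were tested and 0 passed, 0 in each direction.

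**Figure D3:**
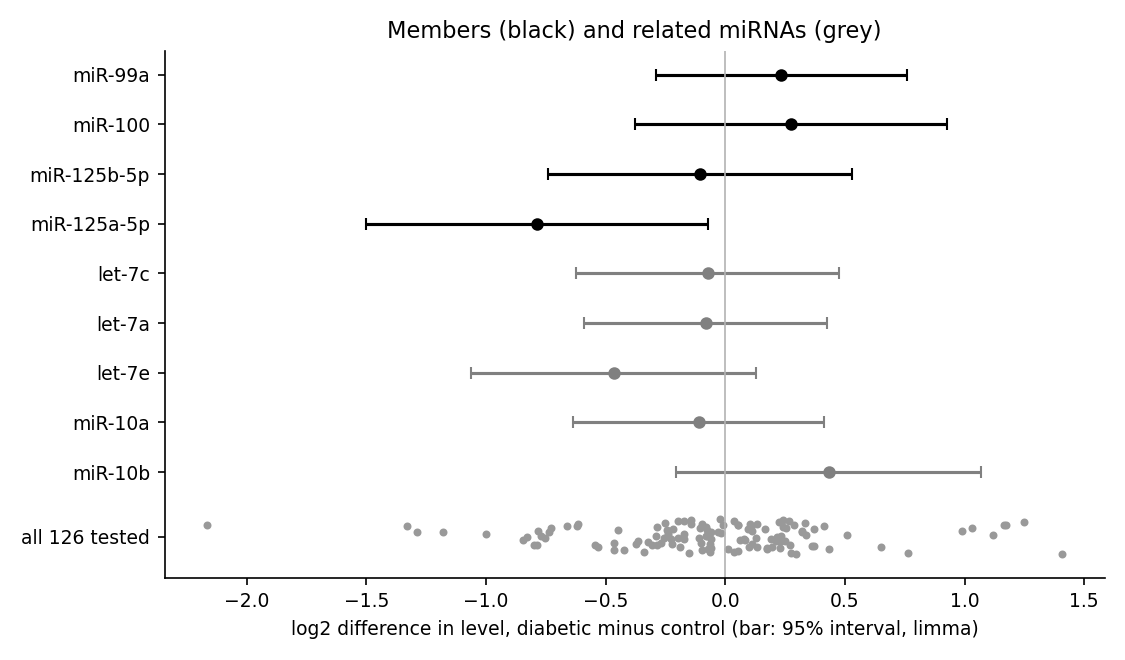
Log2 difference in level, diabetic minus control (x axis), with 95% limma intervals for the 4 tested members (black) and 5 related miRNAs (grey). The bottom row holds all 126 tested miRNAs as points with random vertical scatter; only the interval of miR-125a-5p leaves out 0, and its adjusted p is 0.237.

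Ratios of 2 miRNAs on the same array remove whatever that array's scaling adds to both. They are given as values with no test, and only the difference between groups is read, since the level of one probe cannot be set against that of another. Among the 4 tested members and 3 let-7 neighbours there are 21 pairs, and the diabetic and control arrays did not overlap in 10. Over all 7875 pairs of the 126 tested miRNAs, 18.2% did not overlap, with a median absolute difference of 0.404. The 21 pairs reuse 7 miRNAs and are not independent, and 3 of the 6 pairs with miR-125a-5p and 4 of the 6 with let-7e were among the 10.

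The near-identical pair stayed together. The log2 ratio of miR-99a over miR-100 was 0.65, 0.75, 0.85 and 1.04 on diabetic arrays and 0.60, 1.06, 1.02 and 0.77 on control arrays. The groups overlapped fully and their means differed by −0.04.

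miR-99a against its own cluster neighbour let-7c gave log2 ratios of −1.86, −1.75, −1.63 and −1.77 on diabetic arrays and −2.04, −2.10, −1.97 and −2.14 on control arrays. Every diabetic array lay above every control array. The mean was −1.75 ± 0.09 in diabetic and −2.06 ± 0.07 in control muscle (SD, n = 4 each), a difference of 0.31. The groups overlapped under quantile normalization (0.28) and with normexp correction (0.24).

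miR-99a over let-7a, the neighbour of miR-100, gave log2 ratios of −1.86, −1.88, −1.82 and −1.85 on diabetic arrays and −2.09, −2.26, −2.09 and −2.24 on control arrays. The diabetic arrays lay within a narrow band above all control arrays. The mean was −1.85 ± 0.02 in diabetic and −2.17 ± 0.09 in control muscle (SD, n = 4 each), a difference of 0.32. Both differences, 0.31 and 0.32, lie under the median absolute difference over all pairs.

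miR-100 over its cluster neighbour let-7a had a difference of 0.36 with overlapping groups, and over let-7c 0.35, also overlapping. miR-100 over miR-125b-5p, its other chromosome 9 neighbour, gave log2 ratios of −0.59, −0.74, −0.73 and −0.77 on diabetic arrays and −1.22, −1.29, −0.89 and −0.95 on control arrays. No control array reached the lowest diabetic one, with means of −0.71 ± 0.08 in diabetic and −1.09 ± 0.19 in control muscle (SD, n = 4 each) and a difference of 0.38. With normexp correction the groups overlapped and the difference was 0.24. miR-99a over miR-125b-5p differed by 0.34 with overlapping groups. miR-125b-5p differed by −0.03 against let-7c, by −0.02 against let-7a and by 0.36 against let-7e, with overlapping groups in each.

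The widest ratios involved miR-125a-5p, which met the detection rule on only 2 of 4 diabetic arrays, against 4 of 4 control arrays. Its level on diabetic 3 (−5.91) lay close to the floor, so these ratios rest partly on undetected values. miR-99a over miR-125a-5p gave log2 ratios of 3.51, 4.16, 4.42 and 4.30 on diabetic arrays and 2.86, 3.15, 3.08 and 3.22 on control arrays. No diabetic array fell among the control arrays, and the difference was 1.02. miR-100 over miR-125a-5p gave 2.86, 3.41, 3.57 and 3.26 on diabetic arrays and 2.25, 2.08, 2.06 and 2.45 on control arrays. These groups did not overlap either, and the difference was 1.06. The groups overlapped under quantile normalization, with differences of 0.63 and 0.80, and with normexp correction, with 0.20 and 0.21. The normexp offset of 50 exceeds every reading of miR-125a-5p and by itself makes these differences smaller.

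miR-125b-5p over miR-125a-5p, the 2 miRNAs of one seed, had a difference of 0.68 with overlapping groups. miR-125a-5p over let-7e, its cluster neighbour, differed by −0.32 with overlapping groups. let-7a over let-7e gave log2 ratios between 2.84 and 3.09 on diabetic arrays and between 2.34 and 2.73 on control arrays, a difference of 0.38 with no overlap. let-7c over let-7e differed by 0.39 with no overlap, while let-7c over let-7a differed by 0.01. Both let-7e ratios overlapped between groups under quantile normalization (0.30 for let-7a and 0.31 for let-7c) and with normexp correction (0.15 and 0.16).

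Against let-7e, miR-99a gave log2 ratios of 1.04, 1.21, 1.18 and 0.99 on diabetic arrays and 0.50, 0.47, 0.54 and 0.10 on control arrays. miR-100 over let-7e gave 0.39, 0.46, 0.32 and −0.05 on diabetic arrays and −0.10, −0.59, −0.48 and −0.67 on control arrays. Every diabetic array lay above every control array in both, with differences of 0.70 and 0.74. With normexp correction they were 0.40 and 0.41. These 2 pairs and miR-99a over let-7a did not overlap under any of the 18 alternatives run for them. Most of these could not have brought an overlap. Leaving out an array cannot do so, and several others change both miRNAs of a ratio by the same factor or leave the ratio as it was.

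**Figure D4:**
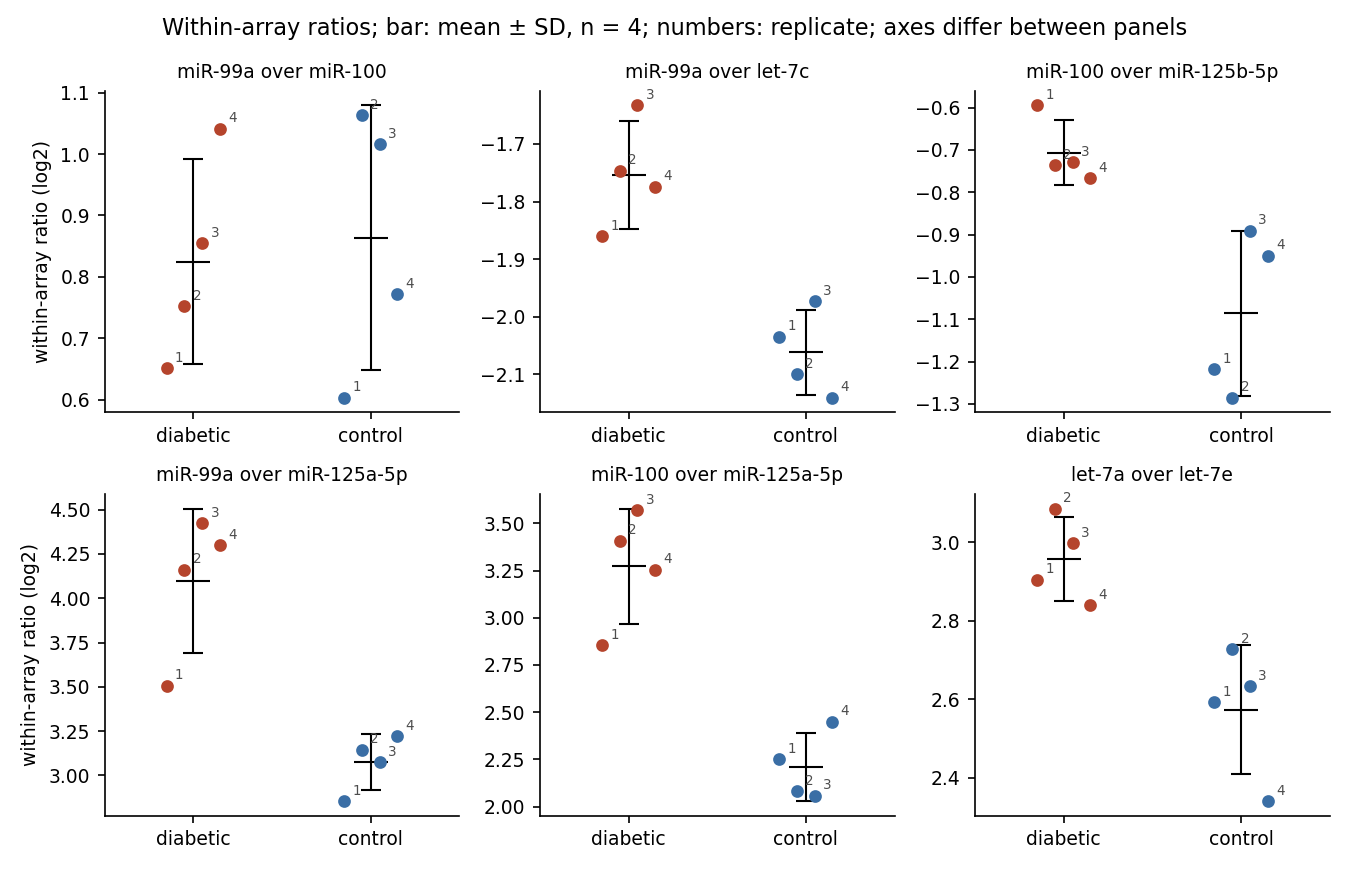
Within-array log2 ratio (y axis) for 6 pairs on diabetic arrays (left) and control arrays (right). Points are arrays numbered by replicate, bars are mean ± SD (n = 4), and y axes differ between panels; the groups overlap for miR-99a over miR-100 and not for the other 5 pairs.

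Across the 8 arrays the levels of miR-99a and miR-100 moved together, with a Pearson correlation of 0.955. For miR-100 and miR-125b-5p it was 0.849, and for miR-99a and miR-125b-5p 0.749. miR-125a-5p correlated with miR-125b-5p at 0.702, with miR-100 at 0.431 and with miR-99a at 0.347. Without control 1 and diabetic 3, the 2 arrays furthest from the median of miR-125a-5p, these were 0.355, 0.239 and 0.162. These are descriptions over arrays that share the scaling of each array and hold both groups, and the median over the other tested miRNAs was 0.47 for miR-99a and 0.345 for miR-125a-5p.

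Outside the members, the miRNAs most like miR-99a were miR-365 (0.988), miR-345-5p (0.977) and miR-361 (0.971). miR-365 had scaled log2 levels of −2.87, −3.30, −3.39 and −2.78 on diabetic arrays and −2.90, −4.19, −3.54 and −3.20 on control arrays, with control 2 lowest as for miR-99a. Without the 2 arrays furthest from the median of miR-99a, its correlation with miR-365 was 0.971 over 6 arrays.

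The miRNAs most like miR-100 were miR-365 (0.909), miR-345-5p (0.897) and the muscle miRNA miR-133a (0.873). Without the 2 arrays furthest from its median these were 0.715, 0.624 and 0.482. The likeness to miR-133a thus rested largely on control 1 and control 2, the arrays left out.

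The miRNAs most like miR-125b-5p were miR-212 (0.939), miR-103 (0.908) and miR-199b* (0.890). Without control 1 and control 2, the arrays furthest from its median, these were 0.759, 0.870 and 0.714. miR-199b* is on the list of stromal markers and had its highest levels on control 1 (−0.79) and control 4 (−0.96). miR-125b-5p was also highest on control 1, and was next highest on diabetic 1 (−1.14) and control 4 (−1.16). The miRNAs most like miR-125a-5p were miR-107 (0.918), miR-497 (0.861) and the leukocyte marker miR-342-3p (0.854). Without control 1 and diabetic 3 these were 0.848, 0.864 and 0.643. miR-107 had a log2 difference of −0.37 (limma adjusted p = 0.441) and miR-342-3p of −0.80 (limma adjusted p = 0.0611). Both ran in the direction of miR-125a-5p without passing the threshold. They were picked by their correlation over arrays of both groups, which by itself favours a shared direction.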

How the data were processed

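Total RNA of mouse skeletal muscle, 100 ng per array per the labels' protocols, was labelled with Cy3 and hybridised to 8 arrays on 1 slide, read in 1 scan with Feature Extraction 10.5.1.1 on a probe design naming mm9, per the file headers. The deposited values are spot intensities after background subtraction, not normalized between arrays. Deposited flags mark outliers, saturation and detection, per the file headers.

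Of 12493 spots, 953 control and 200 viral spots were left out. Kept spots without an outlier flag were averaged per probe. A probe was detected where at least 50% of its spots were well above background. Scaling divided the intensities of an array by the 75th percentile of 152 probes that every array detected. Scaled probes were averaged per miRNA, floored at 0.0162 (log2 −5.95, the 1st percentile of detected levels) and taken to log2. The 126 miRNAs detected on at least 4 arrays entered a limma fit (3.58.1, R 4.3.3) with group as its term, Benjamini-Hochberg adjustment and a threshold of 0.05. A second fit tested 207 probes. The fit was also run on simulated data with independent normal noise, which held no shifts of whole arrays. No result given here rests on that run. Detection counts used exact permutation tests over 70 assignments (smallest p 0.0286). The number of arrays limits precision.

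Members and lists were chosen with earlier results of these data known. Named miRNAs are the members, their other strands, seed and let-7 relatives, miR-10 relatives, and the 3 tested miRNAs with the highest Pearson correlation to each tested member. Alternatives covered scaling, background, probe summary, filters, floor, weights, a replicate block and left-out arrays. The normexp background correction added an offset of 50, which draws log2 differences of dim probes towards 0. Replicate numbers equal slide columns; deviations of same-numbered arrays correlated at 0.207, 0.0816, 0.506 and −0.289, so numbers were not taken to pair arrays. RefSeq tables (GRCm38.p6) differ from the array's build, so no coordinates are given. Figures were drawn with matplotlib 3.10.9.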

Additional observations from a re-analysis of the deposited data

Results flagged for a closer look

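Of 72 groups of 4 arrays screened for a single array far from the others, 2 were picked out, and chance alone picks out about 1 group in 20. The log2 ratio of miR-100 over let-7c was lowest on diabetic 4 at −2.82, with the other 3 diabetic arrays within −2.51 to −2.49. Its gap was 0.927 of the group's range, above the Dixon limit for 4 values. The log2 ratio of miR-99a over let-7e was lowest on control 4 at 0.10, with the other 3 control arrays within 0.47 to 0.54, and its gap was 0.84 of the range. Diabetic 4 was the dimmest array and control 4 had the second highest sum of stromal markers, and their part in these values was not tested.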

How the results depend on the processing

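Under the alternatives run, 0 members passed the threshold. miR-99a and miR-100 kept a positive difference in 22 of 22 alternatives (0.051 to 0.56 and 0.023 to 0.74) and miR-125a-5p a negative one in 21 of 21 (−1.05 to −0.03). The value of miR-125a-5p with detection on all 8 arrays could not be given, since it was not detected on 2 of them. Among the alternatives, the detection filters and the replicate block leave a member's difference as it was, so they could not turn its sign. miR-125b-5p turned positive with scaling over all mouse probes (0.22, under which the median over all miRNAs was 0.26 in place of −0.06), without control replicate 1 (0.16) and, chosen after seeing the data, without control 1 and control 4 (0.36); the cause was not tested. Its probe A_54_P2282 turned in the first of these (0.22) and in the second (0.16). Leaving out single arrays gave 0.051 to 0.37 for miR-99a, 0.023 to 0.50 for miR-100, −1.05 to −0.58 for miR-125a-5p and −0.29 to 0.16 for miR-125b-5p. The ratio of miR-125a-5p over let-7c turned to 0.042 with normexp, against −0.71. The normexp offset of 50 exceeds every reading of miR-125a-5p and by itself draws its log2 difference towards 0.

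The number of miRNAs called, 6 of 126 (6 higher and 0 lower), was 0 with no scaling, 10 with the brightest probe (8 higher and 2 lower), 2 of 567 with no detection filter, 2 without control 1 and control 4, and 2 to 10 when single arrays were left out (10 without control 3). Normexp gave 5 higher and 3 lower, the median of detected probes 5 and 2, and scaling over all mouse probes 8 higher and 1 lower. With the replicate number as a block it was 10 (7 higher and 3 lower), and the adjusted p of miR-125a-5p was 0.059 (limma); same-numbered arrays share a slide column and no stated animal or batch. Signal over background limits miR-125a-5p and miR-99b most.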
